A study of Mus musculus with 6 samples.

Results

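The 40 genes described here form the amino acid arm of the integrated stress response in mouse B cells, together with the enzymes that load amino acids onto tRNA. They were chosen by gene symbol, and all 40 were found among the 39017 genes of the count table. They comprise 8 stress regulators, 4 genes of asparagine and serine synthesis, 8 amino acid transporters and 20 genes of cytosolic aminoacyl-tRNA synthetases. The RNA came from induced germinal center B cells (iGBs), which are splenic B cells of C57BL6/J mice grown on irradiated 40LB fibroblasts that provide CD40L and BAFF, with IL-4 in the medium. The Control group held 3 mice of the genotype Cg1-cre and the Prmt1-null group 3 mice of the genotype Cg1-cre Prmt1f/f, so that both groups carried the Cre. This Cre is expressed from the Ighg1 locus and acts after B cell activation, and Prmt1 encodes the main type I protein arginine methyltransferase. Cells were harvested at 3.5 days and freed of feeder cells with antibodies against H2K, and each mouse gave 1 library. The labels state 5 ng/ml IL-4, whereas the study's methods state another concentration, and the age of the mice is not given in the sources used here. Each group had 2 females and 1 male, and the males were Control replicate 1 and Prmt1-null replicate 3.

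When amino acids run short, uncharged tRNA activates the kinase GCN2 (Eif2ak4), which phosphorylates the initiation factor eIF2. Bulk translation then slows while the mRNA of the transcription factor ATF4 is translated more, so ATF4 activity is set largely by translation and Atf4 mRNA is not a measure of the protein. ATF4 binds composite C/EBP-ATF elements, often as a dimer with C/EBP proteins, and activates genes that take up amino acids, make serine and asparagine and charge tRNA. Activated B cells and antibody-secreting cells rely on this supply because they grow and make protein at a high rate.

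To show what the composite element looks like in these genes, the promoter windows of RefSeq (GRCm38.p6, the assembly of mm10; 250 bases before to 50 after the transcription start, 300 bases in all) were searched for the letters TGATGNAA on both strands, where N is any base. A window was found for 30 of the 40 genes, and 10 of them (33.3%) held the letters. Among all 27025 genes with a window, 4.51% did, and 3.97% of all 32851 windows did. The 10 genes were Trib3, Chac1, Nupr1, Asns, Slc1a4, Aars, Gars, Iars, Tars and Yars. The stretches shown were read 5′ to 3′ on the strand of the gene, with the matching letters in capitals, which read TTNCATCA where the match was on the other strand. They were selected because they cover a gene that changed (Chac1), genes with a match that did not pass the threshold (Asns, Nupr1 and Yars) and a synthetase gene with a lower mean in Prmt1-null iGBs (Iars).
Chac1 (chr2:119351023-119351082, plus strand): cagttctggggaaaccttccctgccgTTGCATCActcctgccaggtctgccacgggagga
Asns (chr6:7693210-7693258, minus strand): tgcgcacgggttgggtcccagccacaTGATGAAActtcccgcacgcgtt
Nupr1 (chr7:126625547-126625606, minus strand): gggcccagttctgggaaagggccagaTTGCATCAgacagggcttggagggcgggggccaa
Yars (chr4:129189895-129189924, plus strand): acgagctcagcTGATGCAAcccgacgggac
Iars (chr13:49682126-49682155, plus strand): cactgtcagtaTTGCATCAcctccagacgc
A match is a description of the letters and was not tested as a binding site. The E-box letters CACGTG, which MYC proteins can bind, were in the windows of 5 of the 30 genes (Nupr1, Aars, Iars, Tars and Farsb; 16.7%) and of 8.09% of all genes with a window. No E-box match shared bases with a TGATGNAA match.

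Ribosomal RNA had been depleted and the libraries were stranded. Total counts ranged from 45343250 to 62774232 in a library and overlapped between genotypes (exact permutation test, two-sided, p = 0.4, where 3 mice against 3 cannot give a p under 0.1). Prmt1 (ENSMUSG00000052429), the deleted gene, had normalized counts of 3941, 3901 and 4809 in Control iGBs. In Prmt1-null iGBs it had 1734, 1469 and 1469, a log2 fold change of −1.44 that leaves 36.9% of the Control level, counted over the whole gene and not over the deleted exons alone. Normalized counts are read counts scaled for library size and composition (edgeR's TMM factors). The B cell markers Cd79a, Cd79b, Ms4a1, Pax5 and Ptprc had counts in each library. In Prmt1-null libraries Cd79b (log2 fold change 0.19) and Ms4a1 (0.093) were higher and Ptprc (−0.17) was lower, each without overlap. Cd79a and Pax5 overlapped, and none of these markers was called. The 10 fibroblast markers of the feeder cells had sums of 27.5 to 31.9 CPM (which adjusts for library size) in Control and 30.2 to 39.1 CPM in Prmt1-null libraries, with Lum and Postn at 0 throughout. Singly, Col1a1 (log2 fold change 0.44) and Sparc (0.64) were higher in Prmt1-null libraries without overlap, neither was called, and the median over the 8 feeder markers tested was 0.28, with 7 above 0. The part of feeder RNA in the results was not tested. The sums of 4 T cell markers (23.2 to 26.5 CPM in Control and 25.0 to 27.9 CPM in Prmt1-null libraries) and of 4 myeloid markers (31.3 to 35.6 and 29.6 to 35.8 CPM) overlapped. The 5 plasma cell markers in the table (Sdc1, Prdm1, Igj, Xbp1 and Irf4), none of them at 0, summed to 966 to 1086 CPM in Control and 1105 to 1195 CPM in Prmt1-null libraries. The sums did not overlap, but singly only Xbp1 was separate between the groups, Sdc1, Prdm1, Irf4 and Igj overlapped, and the log2 fold change of Igj was −0.090. The part of plasma cell differentiation in the values that follow was not tested. In these bulk samples, a change in the share of a cell type and a change in RNA per cell cannot be told apart. Over the 13079 genes with a mean normalized count over 100, the deviations of both male libraries from their group means were correlated (Pearson's r = 0.49 across genes, which share their libraries and are not independent), whereas the other pairs of a Control and a Prmt1-null library had r from −0.34 to 0.25.

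Of the 40 genes, 4 rose and none fell in Prmt1-null iGBs. Genes were called in the quasi-likelihood test of edgeR, for which the Benjamini-Hochberg adjusted p over the 18268 tested genes had to be under 0.05 and the mean over all libraries above 100 normalized counts. In that test 1.18% of all genes were called, 0.58% as higher and 0.602% as lower, whereas among the genes with a mean above 100 the shares were 1.65% in either direction and 0.81% as higher. The 4 genes were Slc7a5 and Slc3a2, the light and heavy chain of the same large neutral amino acid transporter, Chac1, an enzyme that degrades glutathione, and Nars, the asparaginyl-tRNA synthetase. All 40 genes passed the filter on low counts, with means from 28.1 (Nupr1) to 28426 (Slc38a2) normalized counts. The log2 fold changes of 26 genes were above 0 and those of 14 below 0, where 49.9% of all genes were above 0, with a median of 0.074 against −0.0008 for all genes tested. At an unadjusted p under 0.05 there were 16 of the 40 genes, 14 with higher and 2 with lower values, where 13.5% of all genes reached it, 6.5% with higher and 7% with lower values. The Prmt1-null libraries lay above all Control libraries for 15 of the 40 genes and below them for 3, where 9.95% and 9.92% of all genes did so, or 19.9% in either direction. With DESeq2's Wald test 11 of the 40 genes were called, where it called 2.75% of the 25707 genes fitted. Fitted on the genes that passed the filter on low counts, DESeq2 called the same 11, beside 4.08% of those genes. In edgeR without the filter on low counts 11 were called, beside 2.63% of 25707 genes, and without Prmt1-null replicate 2 it called 0, beside 0.166% of 18713 genes.

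**Figure D1:**
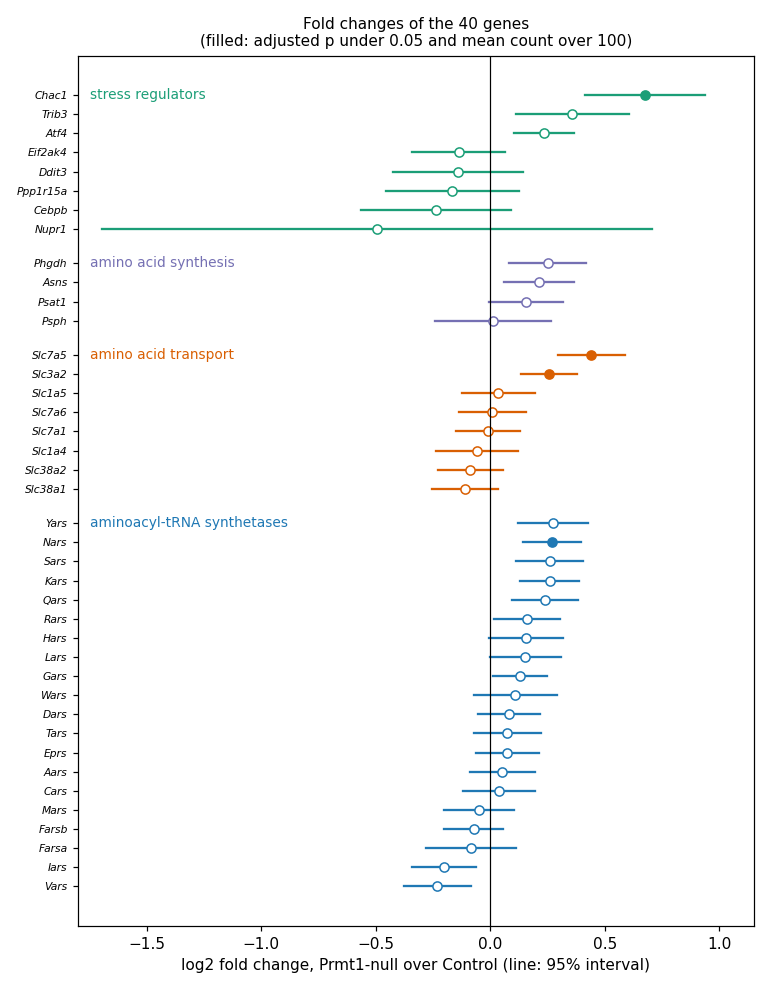
Log2 fold change of each of the 40 genes in Prmt1-null over Control iGBs (horizontal axis), with its 95% interval from edgeR's quasi-likelihood fit, by role. Filled points are the 4 genes past the threshold (Chac1, Slc7a5, Slc3a2 and Nars), all to the right of 0, and open points are the other 36 genes.

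Among the stress regulators, Chac1 rose, Atf4 itself was higher without passing the threshold, and the genes of the CHOP and eIF2 phosphatase branch were not called. Of the 8 genes, 1 was called higher and 0 lower, and their median log2 fold change was −0.14. Relative to each gene's Control mean, the median log2 level of the 8 was 0.059, 0.060 and −0.27 in Prmt1-null replicates 1, 2 and 3. In Control replicates 1, 2 and 3 it was −0.011, −0.053 and 0.076. Chac1 (ENSMUSG00000027313, chromosome 2 from 119351229 to 119354381 on the plus strand of mm10) had 740.3, 696 and 701 normalized counts in Control and 1006, 1074 and 1332 in Prmt1-null iGBs. The Control values lay close together, and the lowest Prmt1-null value was above all of them. The means were 712 ± 24.4 (SD, n = 3) and 1138 ± 172 (SD, n = 3), a log2 fold change of 0.68 (standard error 0.121, edgeR adjusted p = 0.0173). Prmt1-null replicate 3 held the highest value, and without it the log2 fold change was 0.55 (edgeR adjusted p = 0.076). The call was also lost without Control replicate 2 (edgeR adjusted p = 0.096) and without Prmt1-null replicate 2 (edgeR adjusted p = 0.0733).

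Atf4 (ENSMUSG00000042406, chromosome 15 from 80255184 to 80257541 on the plus strand) had 12651, 13899 and 12967 normalized counts in Control and 15759, 15029 and 15663 in Prmt1-null iGBs. All Prmt1-null libraries were above all Control libraries, with means of 13172 ± 649 and 15484 ± 397 (SD, n = 3 each). The log2 fold change was 0.23 (standard error 0.0607, 95% interval 0.10 to 0.36), and its edgeR adjusted p of 0.0865 did not pass the threshold. It passed with DESeq2's Wald test (adjusted p = 0.00421) and in edgeR without the filter on low counts (adjusted p = 0.0186), and not with any library left out (edgeR adjusted p 0.113 to 0.284). Per kilobase of annotated exon, Atf4 was the most abundant of the 40 mRNAs in Control iGBs, at 5586 ± 275 normalized counts (SD, n = 3).

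Trib3, a pseudokinase that ATF4 induces and that restrains ATF4, had 681, 630.1 and 678 normalized counts in Control and 755, 921 and 874 in Prmt1-null iGBs. These groups did not overlap either, and the log2 fold change of 0.36 had a 95% interval of 0.11 to 0.61 (edgeR adjusted p = 0.167). Ddit3, which encodes the pro-apoptotic factor CHOP, had 624, 613 and 744 normalized counts in Control and 664, 611 and 521 in Prmt1-null iGBs. Its groups overlapped, with a log2 fold change of −0.14 and a 95% interval of −0.42 to 0.14. Ddit3 shares 68 exonic bases with Mars on the opposite strand, and the strand setting of the counting is not given in the sources used here, so reads from the shared bases cannot be assigned to either.

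The groups also overlapped for the other 4 stress regulators. Ppp1r15a (GADD34), which directs a phosphatase to eIF2 and so ends the response, had a log2 fold change of −0.17 (95% interval −0.45 to 0.12). Eif2ak4, the kinase GCN2, had one of −0.14 (95% interval −0.34 to 0.065). Cebpb, a partner of ATF4 whose exons overlap those of Tmem189 on the opposite strand over 20.7% of their length, had one of −0.24 (95% interval −0.57 to 0.090). Nupr1, a small stress-induced chromatin protein, had few counts, 36.2, 20.9 and 41.6 in Control and 14.1, 34.8 and 20.7 in Prmt1-null iGBs, and its interval of −1.70 to 0.71 leaves the size of any difference poorly determined at this depth.

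**Figure D2:**
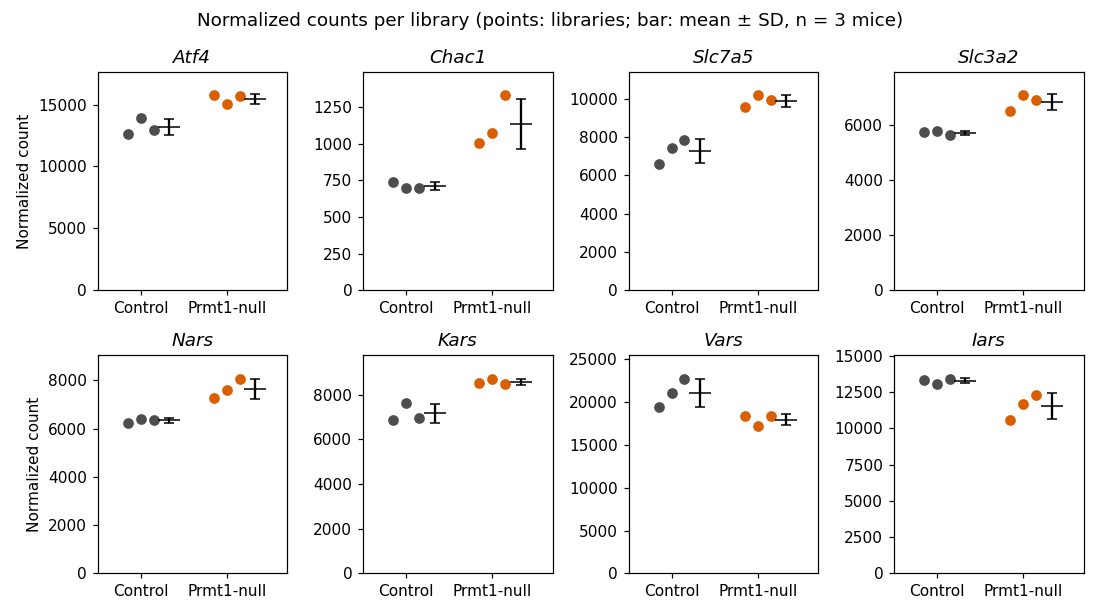
Normalized counts (vertical axes, from 0) of Atf4, Chac1, Slc7a5, Slc3a2, Nars, Kars, Vars and Iars in each Control and Prmt1-null library, with the mean ± SD of 3 mice beside the points. For each of the 8 genes the points of the groups do not overlap, with Vars and Iars lower and the other 6 higher in the Prmt1-null libraries.

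None of the 4 synthesis genes passed the threshold in edgeR with the filter on low counts or in DESeq2. In that edgeR fit 2 had an unadjusted p under 0.05, beside 13.5% of all genes. The log2 fold changes of the 4 genes lay between 0.013 (Psph) and 0.25 (Phgdh), with a median of 0.18. Phgdh, Psat1 and Psph encode the enzymes of the serine pathway in order, and Asns encodes asparagine synthetase. Phgdh (ENSMUSG00000053398) had 4815, 4445 and 4879 normalized counts in Control and 4881, 5979.7 and 5972 in Prmt1-null iGBs. The groups did not overlap, but Prmt1-null replicate 1 lay just above the highest Control library. The log2 fold change was 0.25 (standard error 0.0783, 95% interval 0.084 to 0.42, edgeR adjusted p = 0.152), and Phgdh passed without the filter on low counts (edgeR adjusted p = 0.0145).

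Asns (ENSMUSG00000029752) had 3762, 3872 and 3708 normalized counts in Control and 4017, 4309 and 4817 in Prmt1-null iGBs. Its groups did not overlap, and its log2 fold change was 0.21 (standard error 0.0704, 95% interval 0.061 to 0.36, edgeR adjusted p = 0.18). For Psat1, with 17052, 15401 and 15073 normalized counts in Control and 16149.7, 17481 and 19289 in Prmt1-null iGBs, the highest library of each group was from the male mouse, and the groups overlapped. Its log2 fold change was 0.16 (95% interval −0.0061 to 0.32). Psph shares 10.4% of its exonic bases with Cct6a on the opposite strand and had a log2 fold change of 0.013 (95% interval −0.24 to 0.27). It was far less abundant than the other enzymes, at 181 ± 8.96 normalized counts per kilobase against 3724 ± 249 for Psat1 (Control, SD, n = 3). Pseudogenes of Phgdh and Kars are annotated (Phgdh-ps1 and Kars-ps1), and because reads with up to 2 locations were counted, these genes could share some reads with them.

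Among the 8 transporters, both chains of 1 carrier rose, and the other 6 genes were not called. Of the 8, 2 were called higher and 0 lower, and the median log2 fold change was −0.0012. Slc7a5 (ENSMUSG00000040010, chromosome 8 from 121881150 to 121907694 on the minus strand), also known as LAT1, imports leucine and other large neutral amino acids. It had 6617, 7406 and 7836 normalized counts in Control and 9568, 10184 and 9949 in Prmt1-null iGBs. All Prmt1-null values lay above the Control values, with means of 7286 ± 618 and 9900.2 ± 311 (SD, n = 3 each) and a log2 fold change of 0.44 (standard error 0.0679, edgeR adjusted p = 0.00678). This was the smallest p of the 40 genes, and its call was lost with a library left out only without Prmt1-null replicate 2 (edgeR adjusted p = 0.0666). In the 4 female libraries alone the log2 fold change was 0.38 (edgeR adjusted p = 0.0299), and Slc7a5 was the 1 gene of the 40 called there.

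Slc3a2 (ENSMUSG00000010095, chromosome 19 from 8706882 to 8723369 on the minus strand), also known as CD98 heavy chain, brings LAT1 and several related light chains to the plasma membrane. It had 5736, 5759 and 5623 normalized counts in Control and 6492, 7066 and 6892 in Prmt1-null iGBs. The groups did not overlap, and the spread was small in Control, with means of 5706 ± 73.0 and 6817 ± 294 (SD, n = 3 each) and a log2 fold change of 0.26 (standard error 0.0569, edgeR adjusted p = 0.0456). The adjusted p was close to the threshold, and with any of the 6 libraries left out the call was lost (edgeR adjusted p 0.0617 to 0.24, log2 fold change 0.24 to 0.29). It was also lost with limma-voom (adjusted p = 0.0515) and with sex as a covariate in edgeR (adjusted p = 0.0526).

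The ratio of Slc7a5 to Slc3a2, both per kilobase of exon, was 1.098, 1.224 and 1.326 in Control and 1.403, 1.372 and 1.374 in Prmt1-null iGBs. The light chain mRNA was thus the more abundant in each of the 6 libraries, and the ratios of the groups did not overlap (two-sided exact permutation test, p = 0.1, the smallest it can give). The other light chain of CD98 among the 40 genes, Slc7a6 (y+LAT2, which exchanges cationic for neutral amino acids), had a log2 fold change of 0.0094 with a 95% interval of −0.14 to 0.16. Slc7a1, the main carrier of arginine and lysine, had one of −0.012 (95% interval −0.15 to 0.13).

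The neutral amino acid carriers Slc1a5 and Slc1a4, which move glutamine, alanine and serine, had log2 fold changes of 0.036 (95% interval −0.12 to 0.19) and −0.059 (95% interval −0.24 to 0.12). The glutamine carriers Slc38a1 and Slc38a2 had the lowest of the group, −0.11 (95% interval −0.26 to 0.033) and −0.087 (95% interval −0.23 to 0.056). Slc38a1 had 22319.8, 19447 and 19509 normalized counts in Control and 18471, 19245 and 18986 in Prmt1-null iGBs, without overlap, but its edgeR adjusted p was 0.509. Of the other 16 plasma membrane and lysosomal amino acid carriers considered, 11 had enough counts to be tested, 0 rose and 1 fell. That was Slc6a6, the taurine transporter, with 14464, 12111 and 13689.5 normalized counts in Control and 10449, 9513 and 9917 in Prmt1-null iGBs, a log2 fold change of −0.43 (standard error 0.0713, edgeR adjusted p = 0.011). The call was lost without each of the Prmt1-null libraries in turn (edgeR adjusted p of 0.056, 0.107 and 0.0584 without replicates 1, 2 and 3).

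**Figure D3:**
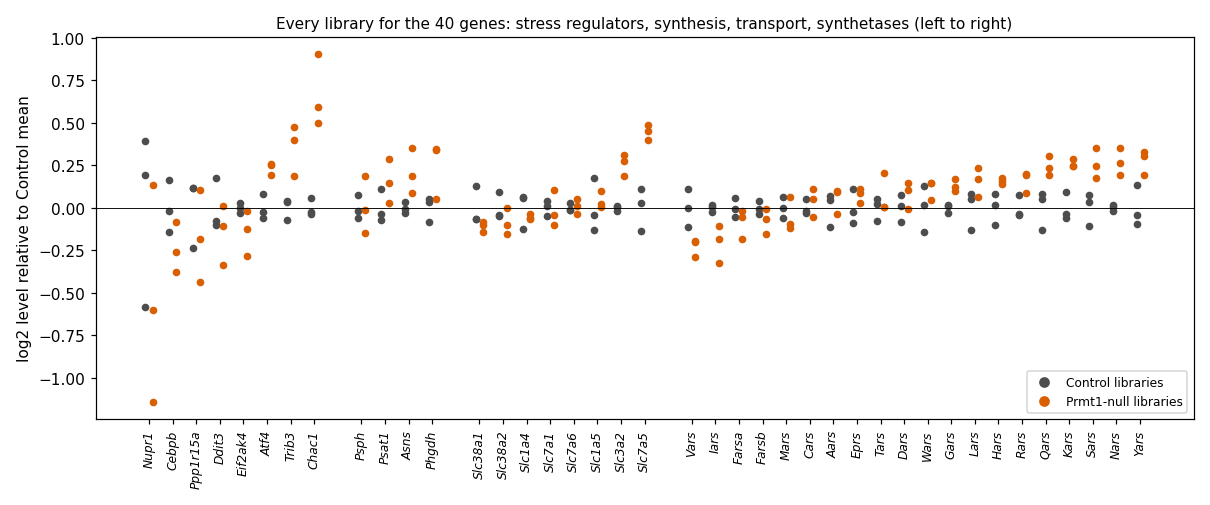
Level of each of the 40 genes in every library, as the log2 of the normalized count plus 0.5 minus the mean of the Control libraries (vertical axis), by role from left to right and by fold change within a role. The Prmt1-null points lie above all Control points for 15 genes and below all of them for 3 (Slc38a1, Iars and Vars).

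Most of the 20 synthetase genes had small log2 fold changes above 0, and the genes for valine and isoleucine were the furthest below 0. Of them, 1 was called higher and 0 lower, 15 had log2 fold changes above 0 and 5 below, the median was 0.095, and the range ran from −0.23 (Vars) to 0.27 (Yars). The Prmt1-null libraries lay above all Control libraries for 8 of the 20 genes and below them for 2, beside 9.95% and 9.92% of all genes. Nars (ENSMUSG00000024587), on chromosome 18, had 6249.6, 6422 and 6354 normalized counts in Control and 7264, 7612 and 8080.3 in Prmt1-null iGBs. The Control libraries were within a narrow range and all Prmt1-null libraries lay above it, with means of 6342 ± 86.8 and 7652 ± 409.6 (SD, n = 3 each) and a log2 fold change of 0.27 (standard error 0.0590, edgeR adjusted p = 0.0427). The call held without Control replicate 3 (edgeR adjusted p = 0.0497) and was lost without each of the other 5 libraries, where the adjusted p went up to 0.191 (without Prmt1-null replicate 3).

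Kars (ENSMUSG00000031948, lysyl-tRNA synthetase) was the next by p, with 6874, 7638 and 6978 normalized counts in Control and 8502, 8725 and 8498 in Prmt1-null iGBs. The 3 Prmt1-null libraries nearly coincided and lay above Control, but the log2 fold change of 0.26 (standard error 0.0600) had an edgeR adjusted p of 0.0564, just outside the threshold. Yars, Sars and Qars, for tyrosine, serine and glutamine, had similar log2 fold changes of 0.27, 0.26 and 0.24, with 95% intervals of 0.12 to 0.42, 0.11 to 0.41 and 0.096 to 0.38. None of the 3 passed the threshold (edgeR adjusted p of 0.0868, 0.0873 and 0.109), although the libraries of the groups were separate for each. DESeq2, and edgeR without the filter on low counts, called Kars and these 3 genes higher.

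Vars and Iars, which charge tRNA with valine and isoleucine, lay on the other side. Vars (ENSMUSG00000007029) had 19425, 21058 and 22749 normalized counts in Control and 18366, 17181 and 18336 in Prmt1-null iGBs, a log2 fold change of −0.23 (standard error 0.0688, 95% interval −0.38 to −0.083, edgeR adjusted p = 0.134). Iars (ENSMUSG00000037851) had 13324, 13071 and 13430.0 normalized counts in Control and 10586, 11700.0 and 12319 in Prmt1-null iGBs, a log2 fold change of −0.20 (standard error 0.0649, 95% interval −0.34 to −0.063, edgeR adjusted p = 0.165). Neither passed the threshold in edgeR with the filter on low counts. Vars passed without that filter (edgeR adjusted p = 0.0275) and Iars did not (edgeR adjusted p = 0.0851), and both passed in DESeq2 (adjusted p of 0.015 for Vars and 0.0408 for Iars), and the Prmt1-null libraries of both lay below all Control libraries. Lars, which charges the third branched-chain amino acid, leucine, had a log2 fold change of 0.15 (95% interval −0.0011 to 0.31).

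The synthetase mRNAs also differed widely in level. Per kilobase of exon in Control iGBs, Vars (3758 ± 296 normalized counts, SD, n = 3), Farsb (3704 ± 93.3) and Iars (2518 ± 35.0) were the most abundant, and Eprs (460.2 ± 32.7), Cars (373 ± 11.6) and Farsa (318 ± 11.9) the least. Vars and Farsb did not differ beyond their spread. Farsa and Farsb encode the alpha and beta subunits of 1 enzyme, the phenylalanyl-tRNA synthetase, and their log2 fold changes were −0.085 (95% interval −0.28 to 0.11) and −0.073 (95% interval −0.20 to 0.056). The exon length of a gene is the union over its annotated isoforms, so these levels depend on the annotation.

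Of the 20 synthetase genes, 8 encode the synthetases that are bound together in the multisynthetase complex (Dars, Eprs, Iars, Kars, Lars, Mars, Qars and Rars). In edgeR with the filter on low counts none of these 8 was called and 4 had an unadjusted p under 0.05, beside 13.5% of all genes. Without that filter Kars and Qars were called higher, beside 2.63% of all genes in either direction. DESeq2 called Kars and Qars higher and Iars lower, beside 2.75% of all genes. For the 8 genes the median log2 fold change was 0.12, against 0.092 for the 12 synthetase genes outside the complex. The remaining genes of the role that are not given one by one (Aars, Cars, Dars, Eprs, Gars, Hars, Mars, Rars, Tars and Wars) had log2 fold changes between −0.048 (Mars) and 0.16 (Rars), and none of them was called. Of the synthetase genes, Aars shares 14.3% of its exonic bases with Exosc6 on the same strand, Farsb 9.47% with Sgpp2 and Hars 7.97% with Hars2, both on the opposite strand, so that their counts and levels are uncertain to that extent.

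Mitochondria use their own synthetases, and the nuclear genes that encode only the mitochondrial form gave no call in edgeR with the filter on low counts. Of these 17 genes, 0 rose and 0 fell in that fit, and 3 had an unadjusted p under 0.05, beside 13.5% of all genes. DESeq2 called 1 lower and edgeR without the filter 2 lower, beside 2.75% and 2.63% of all genes in either direction. The median log2 fold change of the 17 was −0.012. For 14 amino acids with a separate gene for each compartment, the log2 fold changes of the pair had opposite signs for 5, and the cytosolic one was the higher for 8. The difference between the compartments was not tested.

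**Figure D4:**
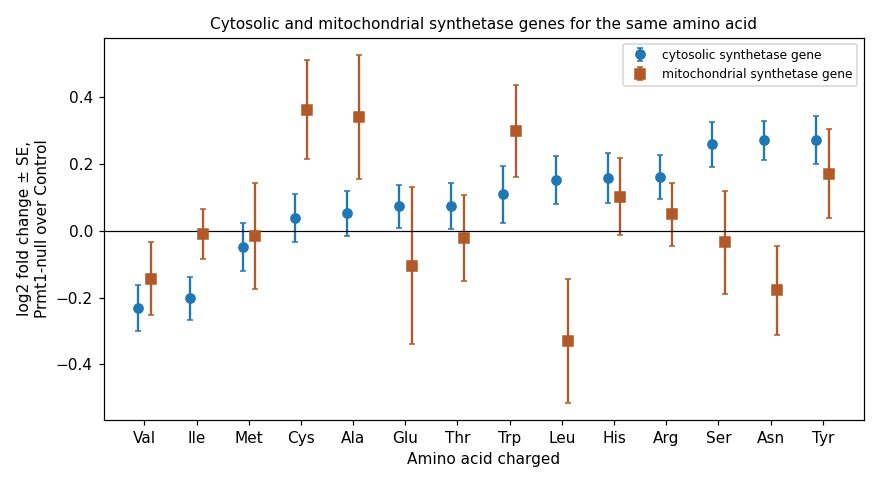
Log2 fold change ± standard error in Prmt1-null over Control iGBs (vertical axis) of the cytosolic (circles) and the mitochondrial (squares) synthetase gene for 14 amino acids, ordered by the cytosolic value. The cytosolic values run from −0.23 (Val) to 0.27 (Tyr) and the mitochondrial values from −0.33 (Leu) to 0.36 (Cys), with larger standard errors for most mitochondrial genes.

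In a list of 22 other genes that ATF4 activates or acts with, 2 rose and 0 fell, with a median log2 fold change of 0.15. Ddit4 (REDD1), an inhibitor of mTORC1, had 2334, 2416 and 2459.7 normalized counts in Control and 2936, 3074 and 3060.2 in Prmt1-null iGBs, a log2 fold change of 0.33 (standard error 0.0659, edgeR adjusted p = 0.0296). Atf5, a related transcription factor, had 1025, 1234 and 1607 normalized counts in Control and 1895, 2148 and 1923 in Prmt1-null iGBs, a log2 fold change of 0.63 (standard error 0.133, edgeR adjusted p = 0.0392). For both genes the call was kept only without Control replicate 3, and with each of the other 5 libraries left out it was lost (edgeR adjusted p up to 0.165 for Ddit4 and 0.201 for Atf5, both without Prmt1-null replicate 2). With the replicate number as a block in edgeR, Atf5 was called and Ddit4 was not. Atf5 lies on chromosome 7 from 44812256 to 44816658, and Prmt1, the deleted gene, lies there from 44975989 to 44986568. An effect of the deleted locus on Atf5 was not tested. DESeq2 called 7 of the 22, all higher, beside 2.75% of all genes fitted. It called the same 7 on the genes that passed the filter on low counts, beside 4.08% of those genes. In edgeR, 11 of the 22 had an unadjusted p under 0.05, beside 13.5% of all genes. The groups did not overlap for 9 of the 22 with higher and 1 with lower values in Prmt1-null iGBs, beside 9.95% and 9.92% of all genes. Slc7a11, the cystine carrier and a well-known ATF4 target, had the lowest log2 fold change of this list, −0.30 (standard error 0.117, edgeR adjusted p = 0.264).

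Other parts of the pathway held few calls. Of 14 genes for the other eIF2 kinases, the subunits of eIF2 and eIF2B and the partners of GCN2, 1 rose and 0 fell. That gene was Eif2s2, the beta subunit of eIF2, with 5296, 5272 and 5163 normalized counts in Control and 6076, 6317 and 6244 in Prmt1-null iGBs, a log2 fold change of 0.24 (standard error 0.0541, edgeR adjusted p = 0.0456), and its call was lost with any of the 6 libraries left out (edgeR adjusted p 0.0608 to 0.219). Eif2s2 was also not called with limma-voom, or in edgeR with the replicate number or sex in the model. Of the 10 genes of serine and glycine use, edgeR with the filter on low counts called 0. There 3 had an unadjusted p under 0.05, beside 13.5% of all genes. Both edgeR without the filter and DESeq2 called the same 3 higher (Cth, Mthfd2 and Shmt2), beside 2.63% and 2.75% of all genes. These are also 3 of the 7 DESeq2 calls among the ATF4 targets. The median log2 fold change of the 10 was 0.26. Mthfd2, a mitochondrial enzyme of one-carbon metabolism, had the smallest p of these 10, with a log2 fold change of 0.30 (edgeR adjusted p = 0.0824).

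Among 14 genes of the other branches of the unfolded protein response, edgeR with the filter on low counts called 0. There 5 had an unadjusted p under 0.05, beside 13.5% of all genes. Without the filter edgeR called 3 and DESeq2 called 4, all higher, beside 2.63% and 2.75% of all genes in either direction. All 14 log2 fold changes were above 0, where 49.9% of all genes were, with a median of 0.19 and a lowest value of 0.0042 (Edem1). Atf6 and Ero1l, which were placed in the list of ATF4 targets instead, were below 0 (−0.025 and −0.074). Xbp1 had the smallest p of the 14, with a log2 fold change of 0.29 (edgeR adjusted p = 0.0571). It passed in edgeR without the filter on low counts (adjusted p = 9.80e-04), with sex as a covariate (adjusted p = 0.0415), in limma-voom (adjusted p = 0.031) and in DESeq2 (adjusted p = 6.76e-04), and it is also 1 of the plasma cell markers. Of the 16 tested genes that relay nutrients to mTORC1, edgeR with the filter on low counts called 0. There 3 had an unadjusted p under 0.05, beside 13.5% of all genes. Without the filter edgeR called 1 higher, beside 2.63% of all genes in either direction. DESeq2 called 1 higher and 1 lower, beside 2.75%, and the median of the 16 was −0.024. Sesn2, a leucine sensor that is also in the list of ATF4 targets and was called higher by DESeq2, had the smallest p of these, with a log2 fold change of 0.28 (edgeR adjusted p = 0.0646). The 6 scaffold and editing partners of the synthetases had no call in edgeR or DESeq2 and no unadjusted p under 0.05, with the smallest p for the scaffold Aimp1 (log2 fold change 0.12, edgeR adjusted p = 0.667).

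Of the 4 called genes, Slc7a5 and Nars had no window to search, Chac1 held TGATGNAA and Slc3a2 did not. For the 10 genes with TGATGNAA the median log2 fold change was 0.10. The Prmt1-null libraries lay above all Control libraries for 5 of them and below for 1 (Iars), beside 9.95% and 9.92% of all genes. For the 20 genes with a window and no match, the median was 0.011, and the Prmt1-null libraries lay above Control for 6 genes and below it for 0, beside the same shares. For the 10 genes with no window, which included 2 of the called genes, the median was 0.13. There the Prmt1-null libraries lay above Control for 4 genes and below it for 2, beside the same shares. The difference between these sets was not tested.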

How the data were processed

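RNA-seq of 6 iGB libraries was analysed. Per the study's methods and the submitters' processing notes, the authors used Trimmomatic 0.32 for trimming, STAR 2.3.0e for alignment (mm10), and featureCounts 1.4.4 to count primary alignments to at most 2 locations on the exons of Ensembl genes. The deposited table holds raw counts, which were used as they stand. Of the 39017 genes, 37693 were matched to GENCODE M21 by gene ID and 813 by symbol. Following the study, 398 Y-linked genes were excluded. Counts were filtered with filterByExpr (minimum count 10), normalized by TMM and tested with edgeR 4.0.16 (R 4.3.3), as Prmt1-null against Control with no covariate. DESeq2, limma-voom, DESeq2's size factors, keeping low counts, the replicate number or sex in the model and leaving out each library were alternatives, and the female libraries alone, DESeq2 on the filtered genes and the alternatives for genes of the related lists were added after the data had been seen. Genes with full values were those past the threshold, Atf4 and the 2 with the smallest p per role, and other single genes were named after their values were seen. The 40 genes and the related lists were chosen with earlier results of these data known. A floor of 3 counts in a library equals 0.0475 to 0.0657 CPM and covers counting error only, because reads carry no molecular identifiers. Values of some genes are not reported here, and 1 pair of synthetase genes was left out of the comparison of compartments. The fitting steps were checked on simulated counts, in which a larger share of DESeq2's calls than of those of edgeR or limma-voom was false. These counts were drawn once from the dispersions that edgeR had fitted, on genes that passed its filter, so the check cannot rank the tools.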

Additional observations from a re-analysis of the deposited data

How the results depend on the processing

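The threshold, more than the direction, depended on the processing. The 4 called genes became 11 (9 higher and 2 lower) with DESeq2's Wald test, which was fitted without the filter on low counts, with 706 genes called in all. DESeq2 on the genes that passed the filter called the same 11 (9 higher and 2 lower) and 746 in all. The count was 11 (10 higher and 1 lower) in edgeR without the filter, with 675 in all. A fold change over 1.4 in place of the minimum mean count left 1 of the 40 genes, which was higher, and 87 in all. Libraries with the same replicate number did not deviate together (r = −0.31, 0.22 and −0.34), so the numbers were not taken to pair the mice, and with the replicate number as a block 2 genes were called, both higher (Chac1 and Slc7a5). In the 4 female libraries 1 gene was called, which was higher, among 113 in all, the median of the transporters was −0.050, and the log2 fold changes changed sign for Slc7a6 (−0.018), Slc1a5 (−0.054), Aars (−0.024), Cars (−0.0071) and Tars (−0.032). With 1 library left out, 0 to 4 of the 40 genes were called, all higher (0 without Prmt1-null replicate 2, and Slc7a5, Chac1, Nars and Yars without Control replicate 3), and 31 to 340 genes in all. The log2 fold changes of Slc1a5 (−0.024 to 0.13), Psph (−0.075 to 0.092), Slc7a1 (−0.073 to 0.037) and Slc7a6 (−0.014 to 0.037) changed sign among these fits. The cause of these changes was not tested, except that a fit on fewer libraries has less information by construction. The log2 fold changes of the other 33 of the 40 genes kept their sign under all alternatives run.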

Other observations

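Gdf15 (ENSMUSG00000038508), a secreted stress cytokine that ATF4, CHOP and p53 can induce, was at 0 raw counts in all 3 Control libraries and had 18, 19 and 24 raw counts in the Prmt1-null libraries. Against a floor of 3 counts in a library, the Prmt1-null mean of 19.4 ± 2.79 (SD, n = 3) normalized counts was at least 6.10-fold higher. Its mean lay below the minimum of 100 normalized counts, so it was not among the genes called. It was chosen after its values were seen and passed the filter on low counts only through the Prmt1-null libraries, so no test of it is given. Stc2, which is in the list of ATF4 targets, also had few counts, 16.9, 34.0 and 25.2 normalized counts in Control and 96.6, 58.6 and 61.1 in Prmt1-null iGBs, without overlap, and a log2 fold change of 1.49 (standard error 0.423, edgeR adjusted p = 0.114). The activity of ATF4 was not measured.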
